A study of Mus musculus with 6 samples.

Results

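The 6 genes Gp2, Sycn, Serpini2, Reg1, Cckar and Aqp12, which encode non-enzyme products of pancreatic acinar cells, were examined. They were taken by gene name and make up 6 of the 54532 genes in the deposited RNA-seq table. The study cultured mouse pancreatic buds taken at E12.5 for 2 days in M199 medium with 10% fetal bovine serum and 0.1% DMSO. The 3 control libraries came from buds in DMSO vehicle alone, and the 3 treated libraries from buds that also received 0.1 µM tetrabenazine (TBZ) throughout. TBZ blocks VMAT2, the transporter that loads monoamines into vesicles, and the study asked how this pathway acts on pancreatic development. No genotype or strain is given in the labels, nor the number of buds in a library, nor whether replicates are separate litters, and the p-values therefore reflect only how these 6 libraries vary. A bud is a mixed tissue of epithelium and mesenchyme, and in such bulk RNA fewer cells of a type and less RNA per cell cannot be told apart.

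Acinar cells store digestive proenzymes in zymogen granules at the apical side of the cell and release them when cholecystokinin or acetylcholine raises cytosolic calcium. Besides the enzymes, granules carry membrane and matrix proteins that take part in packaging and release. Acinar fate is set in the tips of the branching epithelium by a complex of PTF1A with RBPJ and later RBPJL, and BHLHA15 (MIST1) shapes the secretory machinery as the cells mature. At E12.5, when the buds were taken, the earliest acinar cells are only beginning to differentiate. The RNA was taken later, after 2 days of culture.

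Libraries held 35825033 to 50620936 counted reads, with controls the deeper group. Control replicate 3 stood apart in genes of the neighbouring foregut: the summed level of 21 stomach and oesophagus genes was 225 CPM (counts scaled by library size, with TMM) there, 120 to 151 in the other controls and 88.5 to 146 in TBZ. The excess lay in Pitx1 (47.8 CPM there, 1.29 to 7.24 in the other libraries), Krt15, Sox2, Krt5 and Sox21, while the gastric gene Pgc was highest in control replicate 1 (11.0 CPM) and TBZ replicate 2 (7.68 CPM). These 6 genes were chosen after their values were seen. Of that list 15 genes were tested, 5 lay above and 10 below 0 with a median log2 fold change of -0.31, 0 passed with edgeR (1 higher and 6 lower at an unadjusted p under 0.05, 1 higher with DESeq2), and Tff1 was at 0 in every library. The label was checked against 25 digestive enzyme genes, which summed to 5584 to 6689 CPM in control and 8511 to 10340 CPM in TBZ libraries, with none at 0 in every library. This list also holds Clps, a lipase cofactor, and Spink1, a trypsin inhibitor, which are counted with the enzymes throughout.

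The 6 genes lay at very different levels in the bud. By FPKM, fragments scaled by gene length and library size, Reg1 averaged 66.1 and Serpini2 64.2 over the 6 libraries, ranks 610 and 633 of 22046 protein-coding genes. Their order was not stable, with Reg1 above Serpini2 in 3 of 6 libraries and a ratio from 0.907 to 1.21. Cckar followed at 17.2 FPKM, and Serpini2 exceeded it between 2.41-fold and 5.13-fold in every library. Sycn averaged 5.55 FPKM, below Cckar in all 6 libraries. Gp2 averaged 0.317 FPKM, at least 12.8-fold under Sycn in each library, and Aqp12 averaged 0.136 FPKM, below Gp2 in all 6. Between these 4 lower neighbours the ranges did not overlap. In reads, which also grow with transcript length, Serpini2, Cckar and Reg1 supplied 41.6%, 29.2% and 27.4% of the total of the 6 genes over all libraries, and the granule proteins Sycn and Gp2 only 1.41% and 0.293%. In pooled reads the order of the receptor and the lectin turned, with 8137 Cckar and 6151 Reg1 reads in control and 7939 and 8930 in TBZ. The turn came mainly from TBZ replicate 1, with 2468 Cckar and 3743 Reg1 reads. In TBZ replicate 2 Cckar stayed above Reg1 (2888 and 2559), and in TBZ replicate 3 they were close (2583 and 2628).

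**Figure D1:**
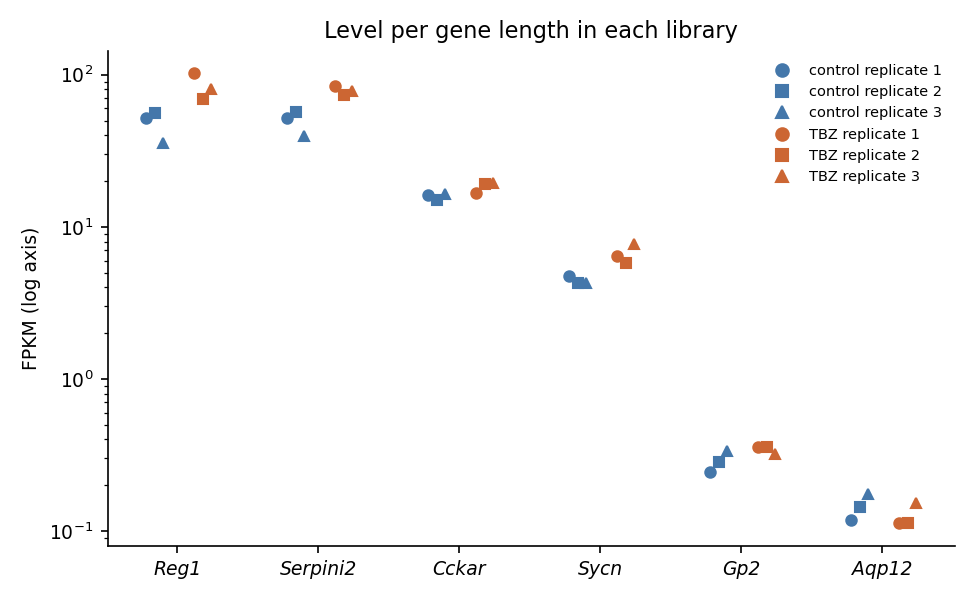
FPKM (log axis) of each gene in each library, blue for control and orange for TBZ, with replicates 1 to 3 as circle, square and triangle. Reg1 and Serpini2 share the top with means of 66.1 and 64.2, while Gp2 (0.317) and Aqp12 (0.136) lie far below.

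Of these genes, 4 lay higher in all TBZ libraries than in any control, by 1.16-fold to 1.75-fold, and none of them passed the genome-wide edgeR test. The highest fold belonged to Reg1, followed by Serpini2 and Sycn, and Cckar moved least of the 4. Gp2 and Aqp12 had overlapping groups. Of 5 members that could be tested, 0 passed the quasi-likelihood test of edgeR at an adjusted p of 0.05, while 0.187% of 18226 tested genes passed in either direction. At an unadjusted p under 0.05, 4 of the 5 were higher, against 5.08% of all tested genes. The 4 without overlap compare with 8.47% of tested genes whose TBZ values all lay above control. The fold change was above 0 for 5 of 5, and for 50.1% of all tested genes. With DESeq2 1 member passed as higher (1.09% of genes did), with no expression filter in edgeR 3 did (0.842%), without control replicate 3 in edgeR 1 did (0.151%), and with limma on FPKM 0 passed (0.0151% in either direction; 4 members at an unadjusted p under 0.05).

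Serpini2 encodes pancpin, a secreted serine protease inhibitor of the serpin family. Its gene lies on chromosome 3 from 75242370 to 75270078 (mm10, minus strand) in 9 separate exon blocks. The level was 73.1, 80.6 and 55.7 CPM in the 3 controls, in replicate order, and 120, 104 and 111 CPM with TBZ. Every TBZ library was above every control, and control replicate 3 was the lowest of all. The means were 69.8 ± 12.8 and 112 ± 7.93 CPM (SD, n = 3 each), 1.60-fold higher in TBZ with a 95% interval from 1.34-fold to 1.92-fold. The log2 fold change was 0.68 ± 0.12 (SE), with an edgeR adjusted p of 0.0753, rank 55 of 18226 tested genes by p. Serpini2 passed with DESeq2 (adjusted p = 1.56e-07) and with no filter in edgeR (adjusted p = 1.96e-09, with an SE of 0.07). The authors' deposited values nearly repeat the DESeq2 run (log2 0.6787 in both, deposited adjusted p = 1.54e-07) and are not a second result. Without control replicate 3, the library high in Pitx1 and Sox2, the log2 fold change was 0.54 ± 0.07 (SE) and the edgeR adjusted p was 0.0283. The part of those foregut genes in the levels was not tested.

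Reg1 encodes a C-type lectin-like protein of pancreatic juice, lithostathine, also known as a regeneration-associated factor. The gene occupies chromosome 6 from 78422711 to 78428667 (mm10, plus strand), with 3 annotated transcripts and 7 separate exon blocks. Control replicates gave 47.1, 51.1 and 32.3 CPM, and TBZ replicates gave 92.7, 62.8 and 73.7 CPM. Again control replicate 3 was lowest and TBZ replicate 1 highest, and the spread within TBZ was wide. The means of 43.5 ± 9.89 and 76.4 ± 15.2 CPM (SD, n = 3 each) differed 1.75-fold (log2 0.81 ± 0.17 SE), with an edgeR adjusted p of 0.142. Its 95% interval ran from 1.34-fold to 2.30-fold. It passed with no filter (edgeR adjusted p = 1.86e-08) and not with DESeq2 (adjusted p = 0.0730). The authors' deposited values nearly repeat the DESeq2 run (log2 0.8104 in both, deposited adjusted p = 0.0726). With no filter the SE of Reg1 was 0.09, against 0.17 in the main fit and 0.25 with DESeq2, at a log2 fold change of 0.81 in each. Of 876 stretches of 50 bases in its annotated transcripts, 32 also occur in transcripts of other genes, so a small share of its reads can be ambiguous; the other 5 members share none.

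Sycn encodes syncollin, a small protein held to the inner face of the granule membrane that takes part in granule release. It lies on chromosome 7 from 28540885 to 28542209 (mm10, plus strand). Its level was 2.65, 2.39 and 2.39 CPM in control and 3.59, 3.24 and 4.32 CPM in TBZ replicates 1 to 3, from 100 to 154 reads a library. All TBZ libraries were above all controls, and unlike Serpini2 and Reg1 its highest library was TBZ replicate 3 and control replicate 3 was not set apart. The log2 fold change was 0.58 ± 0.16 (SE), 1.50-fold, with an edgeR adjusted p of 0.248 (0.151 with DESeq2). The gene sits wholly inside the span of Samd4b, which is transcribed from the opposite strand between 28399522 and 28598144, and shares 0 exon bases with it. The setting for strand in the counting is not given in the sources used here, so reads of unspliced Samd4b RNA may be counted to Sycn. Samd4b itself averaged 134 ± 1.98 CPM in controls and 137 ± 3.65 CPM with TBZ (SD, n = 3 each). Its log2 fold change was 0.03 ± 0.04 (SE; edgeR adjusted p = 0.850), and its part in the value of Sycn was not tested.

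Gp2 encodes the major glycoprotein of the zymogen granule membrane, anchored there by a lipid tail and shed into the juice. The gene lies on chromosome 7 from 119442537 to 119459285 (mm10, minus strand) in 11 separate exon blocks. Controls held only 23, 29 and 28 of its reads and TBZ libraries 29, 29 and 23, that is 0.491, 0.572 and 0.670 CPM against 0.718, 0.712 and 0.645 CPM. The groups overlapped, since control replicate 3 exceeded TBZ replicate 3. The log2 fold change was 0.26 ± 0.26 (SE) with an edgeR adjusted p of 0.782, and the 95% interval from 0.806-fold to 1.79-fold includes both no change and the fold change seen for Serpini2.

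Cckar encodes the cholecystokinin A receptor, the surface receptor through which the gut hormone triggers enzyme release in rodents. It lies on chromosome 5 from 53697776 to 53707705 (mm10, minus strand) in 5 separate exon blocks. Levels were 59.5, 55.8 and 60.4 CPM in control and 61.2, 70.9 and 72.4 CPM in TBZ replicates 1 to 3. TBZ replicate 1, the highest library for Reg1 and Serpini2, was the lowest TBZ library for Cckar and within 1 CPM of control replicate 3. The means were 58.5 ± 2.45 and 68.1 ± 6.11 CPM (SD, n = 3 each), which differ 1.16-fold (log2 0.22 ± 0.07 SE), with an edgeR adjusted p of 0.318. The 95% interval from 1.05-fold to 1.29-fold leaves out the fold change measured for Reg1, 1.75-fold. Cckar passed only with no filter (edgeR adjusted p = 0.0439, with an SE of 0.059 against 0.067 in the main fit), among the alternatives run.

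Aqp12 encodes an aquaporin of intracellular membranes found in acinar cells. The gene lies on chromosome 1 from 93006334 to 93012269 (mm10, plus strand) in 3 exon blocks. It gave 6, 8 and 8 reads in control and 5, 5 and 6 reads in TBZ replicates 1 to 3 and did not pass the expression filter. Summed over each group this was 22 reads, 0.159 CPM by the unscaled totals (exact Poisson 95% interval 0.0995 to 0.240), against 16 reads, 0.136 CPM (0.0777 to 0.221). The intervals cover counting error only and overlap. The log2 ratio of the group means was -0.20, and with no filter the edgeR adjusted p was 0.953.

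**Figure D2:**
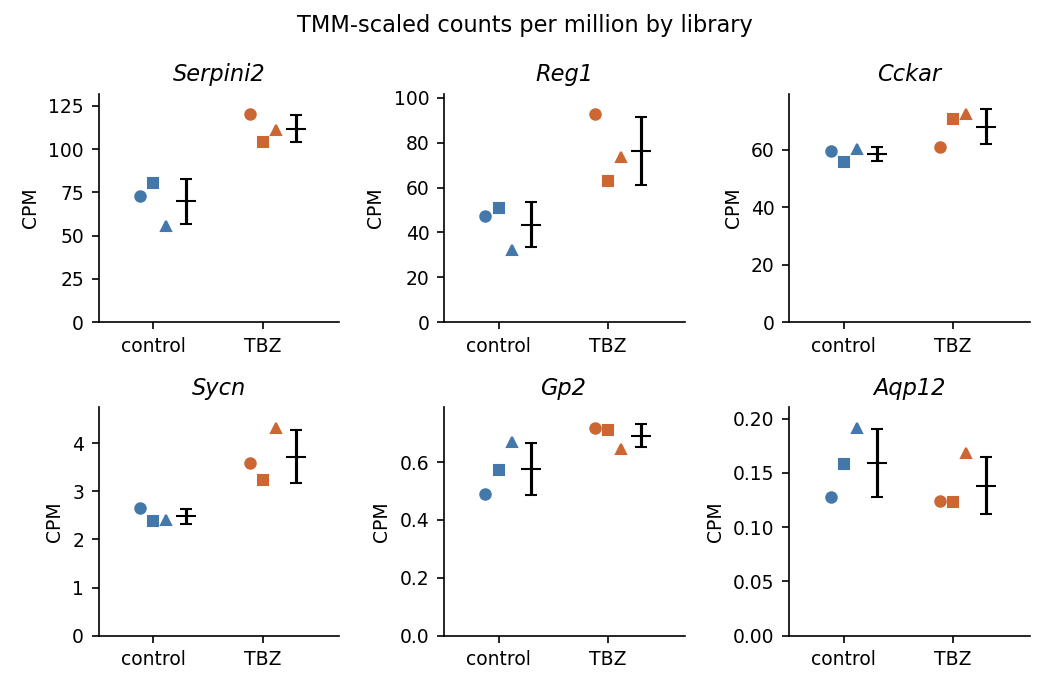
CPM of each gene in each control (blue) and TBZ (orange) library on axes from 0, with replicates 1 to 3 as circle, square and triangle and the mean with SD in black (n = 3). TBZ lies above control without overlap for Serpini2, Reg1, Cckar and Sycn, while Gp2 and Aqp12 overlap.

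Sequence upstream of the genes is shown because Serpini2, Reg1 and Sycn lay higher in the same libraries and Gp2, a granule gene of the same cells, was hardly expressed. Cckar also lay higher in those libraries, but no window was found for it. RefSeq windows on GRCm38.p6 from 250 bases before to 50 after the start were found for 5 of the 6 genes, and the 250 bases before the start are printed below, 5′ to 3′ on the gene's strand. Capitals mark matches to CANNTG, the E-box that basic helix-loop-helix factors such as PTF1A and MIST1 bind, to TGGGAA, the core of RBPJ and RBPJL sites, and to TATAAA, the letters of a TATA box, at any position. The capitals that end Gp2 belong to a TGGGAA match on the opposite strand at -5, which runs past the printed bases. Serpini2 is chr3:75270079-75270328, Reg1 chr6:78425733-78425982, Sycn chr7:28540635-28540884 and Gp2 chr7:119459273-119459522.
Serpini2: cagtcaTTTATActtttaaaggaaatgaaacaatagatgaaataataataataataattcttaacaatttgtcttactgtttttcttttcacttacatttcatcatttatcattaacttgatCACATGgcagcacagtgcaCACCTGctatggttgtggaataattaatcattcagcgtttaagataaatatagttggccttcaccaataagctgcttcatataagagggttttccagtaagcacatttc
Reg1: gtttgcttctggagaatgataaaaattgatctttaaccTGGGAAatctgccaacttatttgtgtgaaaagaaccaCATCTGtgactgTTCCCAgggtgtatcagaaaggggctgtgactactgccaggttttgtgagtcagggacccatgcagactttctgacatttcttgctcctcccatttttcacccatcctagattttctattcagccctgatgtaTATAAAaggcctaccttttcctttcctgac
Sycn: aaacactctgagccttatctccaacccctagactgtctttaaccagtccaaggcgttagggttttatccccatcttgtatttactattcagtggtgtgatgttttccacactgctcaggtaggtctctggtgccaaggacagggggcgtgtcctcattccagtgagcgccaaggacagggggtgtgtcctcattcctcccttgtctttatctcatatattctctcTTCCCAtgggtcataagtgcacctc
Gp2: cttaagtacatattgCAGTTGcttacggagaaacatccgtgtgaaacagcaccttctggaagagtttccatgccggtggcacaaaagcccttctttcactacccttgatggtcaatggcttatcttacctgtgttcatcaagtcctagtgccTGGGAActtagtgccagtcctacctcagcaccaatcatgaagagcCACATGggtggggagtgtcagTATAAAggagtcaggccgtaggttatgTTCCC
Matches were counted on both strands in the full 300 bases. E-boxes, present in 72.3% of the 32851 windows of that length, numbered 2 in Serpini2, 1 in Reg1, 2 in Gp2, 4 in Aqp12 and 0 in Sycn. The form CACCTG, held by 20.2% of windows, was found in Serpini2 and Aqp12, and CAGCTG (16.3%) in none of the 5; both are forms of CANNTG and overlap with it. The TGGGAA core, in 25.6% of windows, occurred 2 times in Reg1, 2 times in Gp2 and once each in Sycn and Aqp12, and was not in Serpini2. In Reg1 an E-box at -175 is flanked by TGGGAA matches at -212 and -163, counted from the start to the first base of the match. TATAAA, in 13.6% of windows, lay at -30 in Reg1 and -32 in Gp2. Further matches on the opposite strand lay at 36 in Reg1 and at -244 in Serpini2, and the windows of Sycn and Aqp12 held none. The nuclear receptor half-site AAGGTCA (4.72% of windows) was in none of the 5. No arrangement was shared by Serpini2, Reg1 and Sycn, and a match is a run of letters, not a measured binding site. For Reg1 the window belongs to the transcript that starts at 78425983, while 2 other annotated transcripts start upstream of it.

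**Figure D3:**
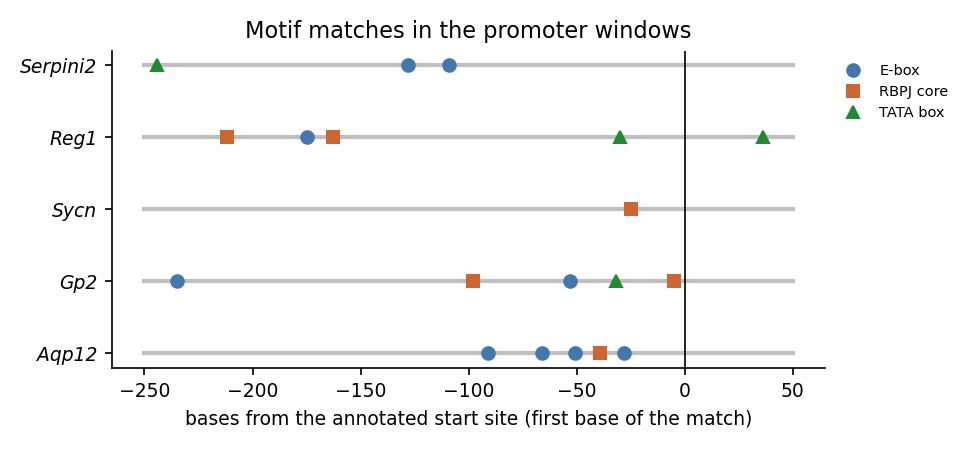
Positions of motif matches in the 300-base windows of 5 genes, with the x axis in bases from the annotated start site and grey bars for the window. Circles are E-boxes, squares the RBPJ core and triangles TATAAA matches at any position, labelled TATA box. Sycn has 1 match and Aqp12 has 4 E-boxes.

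Most family relatives of these genes were hardly detected in the buds. Of 11 relatives 5 were tested and 0 passed with edgeR (2 at an unadjusted p under 0.05, 1 with DESeq2). All 5 lay above 0, with a median log2 fold change of 0.33, and 2 had TBZ values all above control. Serpini1, the neuronal relative of Serpini2 on the same chromosome, stood at 30.4, 27.9 and 26.4 CPM in control and 36.4, 34.8 and 35.1 CPM in TBZ, a log2 fold change of 0.33 ± 0.06 (SE; edgeR adjusted p = 0.101, DESeq2 adjusted p = 0.00675). Its groups did not overlap. In the Reg gene cluster on chromosome 6, Reg3d had 14, 14 and 9 reads in control and 24, 13 and 26 in TBZ (log2 1.03 ± 0.38 SE, edgeR adjusted p = 0.432) and Reg3g 46 reads in control and 56 in TBZ. In the same cluster Reg2 gave 0 control and 5 TBZ reads, Reg3b 4 and 5, and Reg3a 0 and 1, and Reg4 on chromosome 3 gave 1 and 2. Reg1 was thus the only one of 7 Reg genes with more than 1 CPM in any library. Cckbr, the receptor for gastrin and cholecystokinin that predominates in stomach and brain, gave 46 and 45 reads in the 2 groups, against 8137 and 7939 for Cckar. Umod, the kidney relative of Gp2, gave 0 and 1 reads. Aqp11, the closest aquaporin to Aqp12, stood at 3.12 to 4.54 CPM with overlapping groups (log2 0.16 ± 0.17 SE, edgeR adjusted p = 0.804). Zg16 is a granule lectin that was counted among the 11 but is not of the family of any member. It gave 1 control read and 9 TBZ reads, all 9 in TBZ replicate 1.

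Digestive enzyme genes, products of the same cells, rose in part. Of 23 tested enzyme genes 22 were above 0, 10 rose past the edgeR threshold, 0 fell (17 were higher and 0 lower at an unadjusted p under 0.05, 14 higher with DESeq2), and the median log2 fold change was 0.68, against 0.00 over all tested genes and 0.58 over the 5 tested granule and surface genes. Among those with the smallest p were Pnliprp1 (log2 0.90), Try10 (1.30), Cela3b (1.23), Cela1 (0.65) and Cel (0.69), and the most abundant was Ctrb1, at 0.56 and an edgeR adjusted p of 0.0943. The trypsinogen gene Try10 belongs to a family of near-identical copies, so its single value is uncertain if the counting split reads between them, which was not tested. Among 7 acinar transcription factors all were above 0 with a median of 0.27, and with edgeR 1 rose, Bhlha15 (log2 0.50 ± 0.05 SE, adjusted p = 0.00632). At an unadjusted p under 0.05, 5 of the 7 were higher, and with DESeq2 3 were. Gata4 (log2 0.31) had an adjusted p of 0.124 with edgeR and 0.0056 with DESeq2, and Xbp1 (log2 0.15) one of 0.338 and 0.251.

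Each granule or surface gene was set against the enzymes of the same library by subtracting the mean log2 CPM of the 23 enzymes. For Serpini2 this difference was 2.28 ± 0.15 in control and 2.26 ± 0.09 in TBZ (SD, n = 3 each), a shift of -0.02 (two-sided exact permutation p = 0.8). Reg1 shifted by 0.10 (exact p = 0.7) and Sycn by -0.15 (exact p = 0.5). Cckar went from 2.05 ± 0.20 to 1.55 ± 0.30, a shift of -0.50, though its own level was higher in TBZ. The difference was lower in every TBZ library than in any control (exact p = 0.1, the smallest that 3 against 3 can give). The margin was small, with 1.80 in TBZ replicate 2 and 1.83 in control replicate 2. Gp2 shifted by -0.47 with the same p, again by a small margin (-4.75 in TBZ replicate 2 and -4.70 in control replicate 1). Adjusted over the 5 genes the p-values ran from 0.25 to 0.8, and with 3 libraries a group none could have gone below 0.05. With the median enzyme in place of the mean every shift was lower. Serpini2 was then at -0.60 and Sycn at -0.72 (each exact p = 0.1), Reg1 at -0.47 (exact p = 0.2), Cckar at -1.08 and Gp2 at -1.04. In every library the median enzyme by level was Try10, whose log2 fold change of 1.30 lay above the list median of 0.68. The level of Serpini2 against the enzymes thus depends on the average taken, and with the median it rests on Try10 alone.

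**Figure D4:**
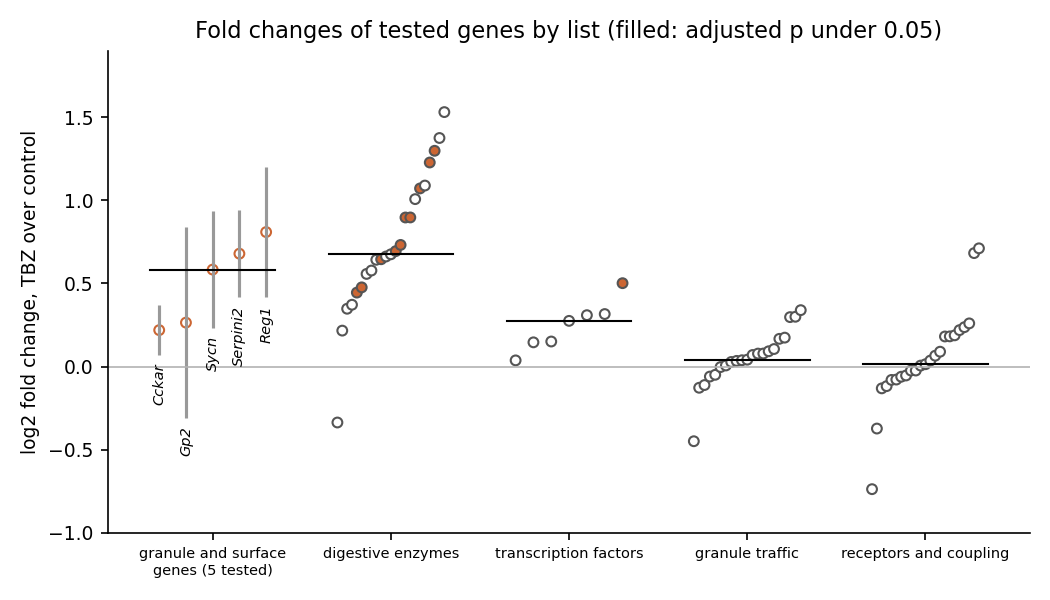
Log2 fold change of TBZ over control for every tested gene of 5 lists, as points, with 95% intervals for the granule and surface genes, black lines for list medians and filled points for an edgeR adjusted p under 0.05. No granule or surface gene is filled, against 10 enzymes and 1 transcription factor.

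**Figure D5:**
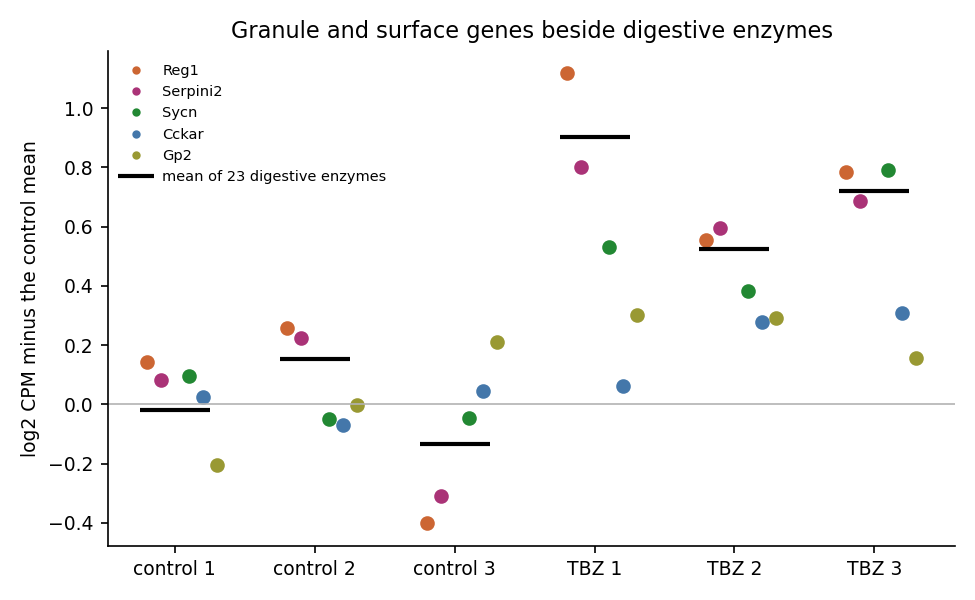
Log2 CPM of 5 genes in each library minus the mean of the controls (y axis), with black bars for the mean of 23 digestive enzymes. Reg1 and Serpini2 lie near the enzyme bar in TBZ libraries, at 1.12 and 0.80 in TBZ replicate 1 where the bar is at 0.90, while Cckar is at 0.06.

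No gene of the granule release machinery passed. Of 21 tested genes for granule traffic and exocytosis 15 were above 0 and 6 below, with a median log2 fold change of 0.04, and 0 passed with edgeR (4 at an unadjusted p under 0.05, 1 with DESeq2). The most abundant were the recycling GTPase gene Rab11a (log2 0.03 ± 0.04 SE) and the apical mucin gene Muc1 (0.30 ± 0.06 SE, edgeR adjusted p = 0.101), which is the one that passed with DESeq2 (adjusted p = 0.00327). Rab3d and Vamp8, which mark zymogen granules, were at 0.08 and 0.01. Other genes of the list lay further from 0 on either side, such as Rab26 at 0.34, Syt7 at 0.30 and Syt1 at -0.45. Their edgeR adjusted p-values were 0.558, 0.494 and 0.569. All of these were chosen after their values were seen. Of 23 tested genes for secretagogue receptors and stimulus-secretion coupling, Cckar among them, 13 were above and 10 below 0 with a median of 0.01, and 0 passed with edgeR (3 at an unadjusted p under 0.05, 1 with DESeq2). The calcium pump gene Atp2a2 (0.04 ± 0.05 SE) and the G protein gene Gna11 (0.07 ± 0.04 SE) were the most abundant. Many genes of both lists are expressed well beyond acinar cells.

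Markers of other cells in the bud were read in the same libraries. Of 19 tested general epithelial genes 15 were above 0 with a median of 0.13, and their summed level ran from 2704 to 3019 CPM in control and 2950 to 3256 CPM in TBZ libraries. Duct genes summed to 924 to 967 CPM in control and 1021 to 1122 CPM in TBZ (5 of 7 above 0, median 0.22). Endocrine genes summed to 707 to 829 CPM and 720 to 1002 CPM (11 of 13 above 0, median 0.23). Mesenchymal genes summed to 7509 to 8589 CPM and 7616 to 8689 CPM (6 of 11 above 0, median 0.01). In these 4 lists 0 genes passed with edgeR and none is at 0 in every library. At an unadjusted p under 0.05 they held 6 higher epithelial, 4 duct and 2 endocrine genes and 1 lower mesenchymal gene, and with DESeq2 1 higher gene each, except 0 in mesenchyme. The part of cell composition in the values of Serpini2, Reg1, Sycn and Cckar was not tested. Of 7 tested liver genes 4 were above 0 and of 5 tested intestinal genes 3 were, with Apoa4 at 0 in every library; in both lists 0 passed with edgeR, at an unadjusted p under 0.05 or with DESeq2. Neural crest, glia and neuron genes were mostly below 0 (1 of 7 above 0, median -0.24; 1 higher and 3 lower at an unadjusted p under 0.05), as were mesothelial genes (1 of 7, median -0.19) and blood and macrophage genes (2 of 10, median -0.07; 1 lower at an unadjusted p under 0.05), while 5 of 6 endothelial genes were above 0 (median 0.06). In these 4 lists 0 passed with edgeR or DESeq2.

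Serpini2 and Reg1 were also close to each other across libraries, with a Pearson correlation of log2 CPM of 0.981 over the 6 libraries, which include both groups. Among 12205 protein-coding genes with a mean of at least 1 FPKM in a group, those closest in pattern to Reg1 were Slco2a1 (r = 0.999), Cxcl12 (0.998) and Zmynd11 (0.996), and Serpini2 stood at rank 22. Closest to Serpini2 were Ube2h (0.996), Pcyox1 (0.995) and Mxd4 (0.994), with Reg1 at rank 26. For Sycn they were Fam234b, Insrr and Ttc39a (0.996, 0.995 and 0.994), for Cckar Fam102a, Sltm and D11Wsu47e (0.993, 0.992 and 0.987), and for Gp2 Ctps2, Prpsap1 and Fcf1 (0.991, 0.991 and 0.987). With 6 libraries the genes named were not alone at such values. Of the 12205 genes compared (12206 for Gp2), 100 reached 0.95 with Reg1, 117 with Serpini2, 111 with Sycn, 39 with Cckar and 20 with Gp2. None of the genes so named passed the edgeR test.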

How the data were processed

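Per the labels' protocols, mRNA captured on poly-T beads was sequenced as paired ends in 6 libraries, 3 a group. The read count values are raw, per the file headers; per the submitters' processing notes STAR and HTSeq were used on mm10, without versions. The deposited FPKM values scale the counts by gene length and library size. The signal values (group means of scaled counts), the log2 fold changes and the p-value columns are also the authors'. Their tool is not given in the sources used here, but for each member the deposited log2 fold change equals that of the DESeq2 run.

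Counts were scaled by TMM, filtered with filterByExpr (18226 of 54532 genes kept) and tested with the edgeR quasi-likelihood test, Benjamini-Hochberg adjusted over all tested genes at 0.05. Each SE was taken as the size of the log2 fold change divided by the root of the F statistic; intervals are at 95%. Single values per library were compared by exact permutation. Alternatives were DESeq2, RLE and upper-quartile scaling, no filter, a replicate block, limma with trend on log2 FPKM with a pseudocount of 0.5, 0.1 or 1 (mean FPKM of at least 0.1, or no filter), and each library left out. The fits were tested on simulated data. The tools were edgeR 4.0.16, DESeq2 1.42.0 and limma 3.58.1, run in R 4.3.3.

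The genes and the 17 lists were chosen with earlier results of these data known. The text names all 6 members, their relatives, the members of each other acinar list with the smallest p among those called (up to 6), the 2 with the highest FPKM, and the 3 genes most like each member; an enzyme gene that this rule names is not reported here. Gene models came from GENCODE M21 and promoters from RefSeq. A planned protein comparison was not made; protein sequences were not used here.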

Additional observations from a re-analysis of the deposited data

How the results depend on the processing

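The direction of each of the 5 tested members was the same under every alternative run. The count of genes changed, 34 with the edgeR test, became 222 with DESeq2, 445 with no filter in edgeR, 5 with the replicate block, 3 with limma on log2 FPKM with a pseudocount of 0.5, 0.1 or 1, and 0 with limma without a filter (2135 at an unadjusted p under 0.05); it ran from 5 to 36 with single libraries left out (13 without control replicate 2, 11 without TBZ replicate 1, 5 without TBZ replicate 3). The count of members changed, 0 with the edgeR test, was 1 with DESeq2, 3 with no filter and 0 to 1 with single libraries left out. Serpini2 passed with DESeq2 (log2 0.68), with no filter (0.68) and without control replicate 3 (0.54; range 0.54 to 0.80 over the left-out libraries). With no filter Reg1 (0.81) and Cckar (0.22) passed too. In that fit the log2 fold changes hardly differed from the main fit, and the SEs were smaller. They were 0.07 for Serpini2 (0.12 in the main fit), 0.09 for Reg1 (0.17) and 0.059 for Cckar (0.067). The causes were not tested. Leaving out single libraries gave 0.64 to 0.94 for Reg1, 0.46 to 0.67 for Sycn, 0.17 to 0.29 for Cckar and 0.16 to 0.38 for Gp2; the ratio of Aqp12 ran from -0.37 to -0.05. With 2 libraries left in a group, the fit takes the spread from all libraries.

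Relative to the enzymes, the shift of Serpini2 turned from -0.02 to 0.0852 on log2(FPKM + 0.5), and ranged from -0.11 to 0.0297 with single libraries left out. With the median enzyme, which was Try10 in every library, it was -0.60, and that of Sycn -0.72 against -0.15. That of Reg1 turned from 0.10 to -0.47 with the median enzyme, and ranged from -0.0305 (without control replicate 3) to 0.18. The labels do not say whether libraries of the same number belong together, and 3 libraries a group are too few to settle it. Deviations of same-numbered libraries correlated at 0.002, -0.153 and -0.077, and those of the other pairs from -0.088 to 0.148. Of the controls, 0 of 3 were closest to their own number. With the replicate block the edgeR adjusted p of Serpini2 was 0.157. Depth limits Gp2 and Aqp12, with at most 29 and 8 reads a library.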

Other observations

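The genes Nccrp1, Vipr1 and Tff2 lay higher in every TBZ library than in any control; they were chosen after their values were seen. Nccrp1 lies on the opposite strand from Sycn, with its 3′ end 1.39 kb beyond that gene. Nccrp1 had 18, 11 and 13 reads in control and 36, 19 and 26 in TBZ replicates 1 to 3 (log2 1.19 ± 0.36 SE, edgeR adjusted p = 0.310). Vipr1, a receptor for vasoactive intestinal peptide, stood at 3.63, 4.003 and 2.99 CPM in control and 5.48, 4.86 and 6.78 CPM in TBZ (log2 0.68 ± 0.16 SE, edgeR adjusted p = 0.192, DESeq2 adjusted p = 0.0231). Tff2, a trefoil peptide gene of the stomach list, stood at 0.576, 0.749 and 0.287 CPM in control and 1.61, 1.38 and 1.23 CPM in TBZ (log2 1.37 ± 0.32 SE, edgeR adjusted p = 0.185, DESeq2 adjusted p = 0.0317), while the median of its list was -0.31.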
